A study of Homo sapiens with 24 samples.

Results

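Total RNA of OVCAR-3 cells that received the mTOR kinase inhibitor INK128 together with carboplatin was compared with total RNA of cells that received carboplatin alone. OVCAR-3 is an established line of high-grade serous ovarian cancer that is resistant to platinum drugs. The comparison holds 6 of the 24 Affymetrix Human Gene 2.0 ST arrays of the series, 2 with the combination and 4 with carboplatin, all of total RNA, which was taken from the same lysates as the polysomes. Cells of the combination received 0.25 µM INK128 for 19 h, then 1 µM carboplatin for 5 h, 24 h in all. Carboplatin-treated cells received 1 µM carboplatin for the same 5 h and no INK128. INK128 alone (0.25 µM, 2 arrays) and DMSO, the solvent control (2 arrays), supplied a second pair of total RNA groups that shares no array with the first.

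Titles and datasets disagree on which array is which. The conditions used here are those of the datasets of values that accompany the study: an array took the condition of the dataset column that held its values. All 676 probesets of each combination column, and all 527 of each carboplatin column, equalled 1 array within 0.0001, while no other array equalled more than 0.296% of them. For 3 of the 6 arrays the title conflicts with the column. Combination 1 is titled carbo_poly_rep1, that is, carboplatin and polysome RNA. Combination 3 is titled carbo_total_rep1, and carboplatin 3 is titled carbo+ink_total_rep2. Carboplatin 1, 2 and 4, titled carbo_total_rep2, carbo_total_rep3 and carbo_total_101_rep1, are in no conflict, and the 3-digit code in the title of carboplatin 4 is not explained. Both combination arrays are in conflict, so no comparison can be made without the conflicting arrays, and with the titles' conditions limma called 0 genes. The changes of 62 of the 87 genes named by rule had the opposite sign under the titles, so every direction below holds for the conditions of the datasets.

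mTOR is a kinase that couples growth factors and nutrients to cell growth, and it works in 2 complexes. mTORC1 drives ribosome production, cap-dependent translation and the synthesis of lipids, nucleotides and amino acids, in part through the transcription factors ATF4 and SREBP, while mTORC2 activates AKT, which holds FOXO transcription factors out of the nucleus. INK128 blocks the kinase site and so both complexes. Carboplatin crosslinks DNA, and cells repair or tolerate the lesions through excision repair, homologous recombination and checkpoint kinases.

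The cells carried the markers of their line. Of 15 markers of serous ovarian carcinoma fixed for this check 13 were measured and all 13 lay among the tested genes. PAX8, a transcription factor of the Müllerian epithelium, led them at log2 signals of 11.91 to 12.33 over the 10 total RNA arrays. CLDN4 was the lowest, at 6.06 to 6.90, and MECOM read 6.21 to 7.24. Of 13 markers of fibroblasts, endothelium and leukocytes 5 were measured, all under the 6.54 at which a gene was tested, from DCN at 2.65 to 2.89 to VWF at 5.23 to 5.56. After each gene was centred, the combination arrays correlated with each other at r = 0.54 across genes, and carboplatin 2 with carboplatin 3 at 0.775. Carboplatin 4 correlated with the DMSO arrays at 0.586 and 0.464, against 0.119, -0.196 and -0.119 with the other carboplatin arrays. A fraction score, the mean of 100 genes that were higher on polysomes minus the mean of 100 that were lower, chosen over the arrays without conflict, was 0.13 to 1.99 in polysome arrays and -1.07 to 0.15 in total RNA arrays without conflict. These arrays had chosen the genes, so their separation was fixed in advance, and the ranges still overlapped slightly. The score was -0.60 in combination 1, which is titled as polysome RNA, and -0.30 in combination 3, above the -1.07 to -0.86 of the 4 carboplatin arrays. Carboplatin 1, 2 and 4 took part in the choice of genes, while carboplatin 3 (-0.89) and the combination arrays did not. Nor did the array titled carbo+ink_total_rep1, which is carboplatin polysome RNA by the datasets and scored 1.19. The comparison by the titles takes that array as combination total RNA. Of the 100 genes higher on polysomes 16 were called higher and 0 lower in the comparison below, and of the 100 lower on polysomes 1 was called higher and 8 lower. Over all tested genes 5.60% were called higher and 2.77% lower. The choice favored genes low in carboplatin 1, 2 and 4 for the higher set, and those arrays are also in the comparison. These counts are therefore partly fixed by the choice of genes. The part of this score in the results was not tested.

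More genes were called higher than lower in total RNA when INK128 was added to carboplatin. Of 7442 tested genes limma called 623 at an adjusted p under 0.05 (8.37%), of which 417 were higher (5.60% of tested genes) and 206 lower (2.77%) with the combination, and 1961 genes had an unadjusted p under 0.05. The share of calls that were higher was 66.9%, and 56.8% (398 higher, 303 lower) when total RNA arrays were quantile normalized among themselves. The called changes had a median size of 0.75 on the log2 scale, or 1.68-fold, and 110 of the 623 reached 2-fold, 84 up and 26 down. The values of the 2 groups did not overlap for any of the 623 genes. Such separation was common, since 2924 of the tested genes (39.3%) did not overlap, 1766 of them higher and 1158 lower. At the thresholds of the study's methods, an unadjusted p under 0.05 and a log2 change of at least 1, 123 genes passed (1.65%), 93 up and 30 down. Those methods describe quantile normalization of total RNA apart from polysome RNA. When the deposited values were quantile normalized within total RNA, 111 genes passed. The median over all 7442 tested genes was 0.034, and 4032 of them had a positive change. Combination 3 carries much of the support. Without it 0 genes passed in limma (953 before adjustment), and without combination 1 it called 169.

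The largest rise was that of PPL, which encodes periplakin, a linker of desmosomes to keratin filaments. Its log2 signal was 9.65 and 10.24 in combination 1 and 3 and 7.70, 7.87, 7.84 and 7.71 in carboplatin 1 to 4, a 4.48-fold difference, with a log2 change of 2.16 ± 0.26 (adjusted p = 0.00177). SCEL, which encodes sciellin, a precursor of the cornified envelope of squamous epithelia, read 10.45 and 10.63 against 8.72, 9.04, 9.06 and 8.45, with a log2 change of 1.72 ± 0.18 (adjusted p = 0.00146). The lowest combination array of both genes stood more than 1 log2 unit above the highest carboplatin array. TXNIP, an inhibitor of thioredoxin and of glucose uptake and a FOXO target, read 9.94 and 9.94 against 8.06, 8.48, 8.29 and 8.18, with a log2 change of 1.69 ± 0.20 (adjusted p = 0.00173). SPRY2, a feedback inhibitor of receptor tyrosine kinase signaling, read 10.11 and 10.43 against 8.44, 8.93, 8.89 and 8.71, with a log2 change of 1.53 ± 0.19 (adjusted p = 0.00258). These 4 genes stayed past the threshold whichever array was left out except combination 3, without which the adjusted p of PPL was 0.081. H6PD, the hexose-6-phosphate dehydrogenase of the endoplasmic reticulum, rose by 1.61 ± 0.22 on the log2 scale and THRSP, a gene tied to lipid synthesis, by 1.58 ± 0.33. Other genes of this rank were SYCP2, of the synaptonemal complex of meiosis, at 1.66, the potassium channel partner KCNIP1 at 1.50, YPEL2 at 1.45, the secreted protein gene CTHRC1 at 1.38, the cathepsin gene CTSO at 1.37, the zinc finger gene ZNF581 at 1.36 and the RNA FLJ42627 at 1.52. NOTCH2NLA, at 1.48, and GTF2IRD2, at 1.35, have near-identical copies in the genome, so that their probesets may read more than 1 gene. In the plot of the leading genes the groups are apart for all 15 rises.

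**Figure D1:**
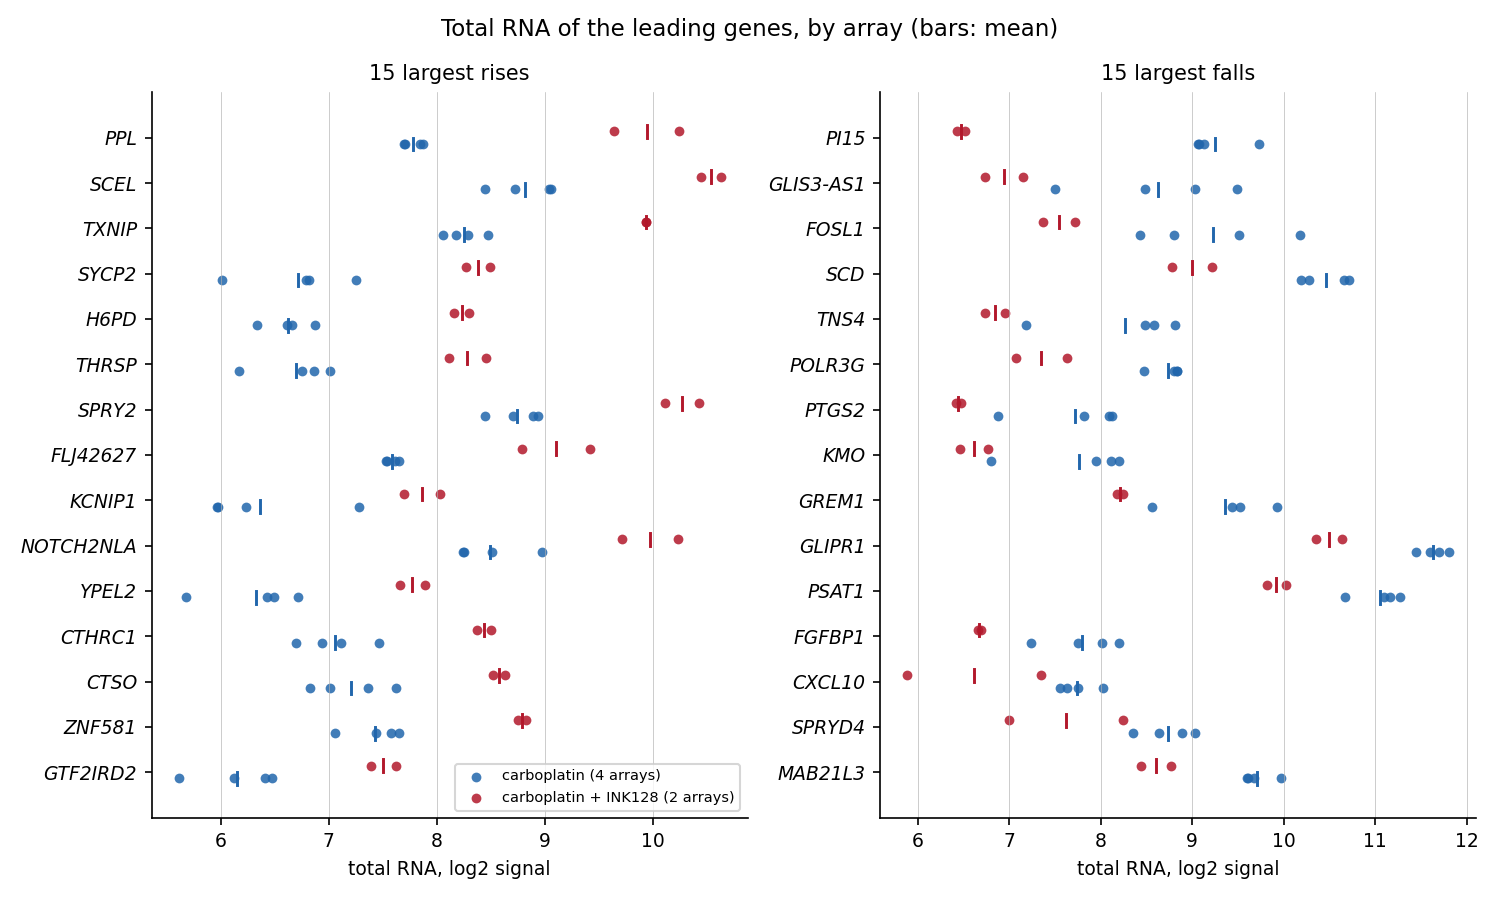
Log2 signal (x axis) of the 15 called genes with the largest rise and the 15 with the largest fall (y axis); points are arrays, blue for the 4 carboplatin arrays and red for the 2 combination arrays, and bars are group means. The groups do not overlap for any of the 30 genes, while carboplatin 4 lies close to the combination arrays for KMO, where it reads 6.81 against 6.77 in combination 1.

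The promoter of TXNIP held the forkhead site GTAAACA that FOXO factors bind. It is shown because TXNIP was called on the FOXO list and its window held the site. The windows of CCNG2, EGFR and INSR, also called on that list, did not hold it. IGF1R and ERBB4 were called on the list too, but their windows are not given, since the rule did not name them. From RefSeq (GRCh38.p14), chr1:145996530-145996829 (minus strand), 250 bases before to 50 after the start, 5′ to 3′, with the forkhead site and the CCAAT boxes in capitals:
TXNIP: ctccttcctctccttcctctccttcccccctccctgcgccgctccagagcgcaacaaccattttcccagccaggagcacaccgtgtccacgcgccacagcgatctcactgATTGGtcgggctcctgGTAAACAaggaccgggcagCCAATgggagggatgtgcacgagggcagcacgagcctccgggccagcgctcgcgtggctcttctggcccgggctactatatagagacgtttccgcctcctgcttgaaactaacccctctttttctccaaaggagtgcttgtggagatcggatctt
The forkhead site began 124 bases before the start, between CCAAT boxes at 140 and 105 bases before it, with no overlap among them. On both strands the site occurred in 3.41% of 27305 promoters and in 2.37% of the 6025 promoters of tested genes. It occurred in 18 of the 345 promoters found for the genes called higher (5.22%) and in 3 of 20 on the list of FOXO targets and receptor tyrosine kinases. No share is given for the genes called lower, since a promoter was found for 78.6% of them. A match describes letters in a window and not a bound site.

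The largest fall was that of PI15, which encodes a secreted protein of the peptidase inhibitor and CAP family. It read 6.52 and 6.43 in combination 1 and 3 and 9.06, 9.08, 9.13 and 9.73 in carboplatin 1 to 4, with a log2 change of -2.77 ± 0.33 (adjusted p = 0.00177) and a 95% interval of -3.49 to -2.05. GLIPR1, a relative of PI15 in the CAP family, read 10.63 and 10.36 against 11.70, 11.45, 11.60 and 11.81, with a log2 change of -1.14 ± 0.17 (adjusted p = 0.00548). SCD, the stearoyl-CoA desaturase that makes monounsaturated fatty acids, read 9.21 and 8.78 against 10.66, 10.20, 10.27 and 10.71, with a log2 change of -1.46 ± 0.24 (adjusted p = 0.00817). POLR3G, a subunit of RNA polymerase III, which transcribes tRNAs and 5S rRNA, read 7.63 and 7.07 against 8.47, 8.80, 8.84 and 8.83, with a log2 change of -1.38 ± 0.21 (adjusted p = 0.00548). PSAT1, an aminotransferase of serine synthesis, read 10.03 and 9.81 against 10.67, 11.17, 11.09 and 11.27, with a log2 change of -1.13 ± 0.23 (adjusted p = 0.0176). For comparison, DMSO arrays read 9.07 and 9.92 for PI15, 10.70 and 10.29 for SCD and 8.75 and 8.81 for POLR3G, close to the carboplatin arrays. MAB21L3 fell by 1.11 and FGFBP1, which releases fibroblast growth factors from the matrix, by 1.13. SPRYD4 and CXCL10, a chemokine gene, fell by 1.11 and 1.13, and their combination arrays lay far apart, at 8.24 and 7.00 and at 7.35 and 5.89.

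The size of several of the largest falls depended on carboplatin 4. TNS4, a focal adhesion gene, read 8.82, 8.49, 8.59 and 7.18 in carboplatin 1 to 4, 6.96 and 6.74 with the combination and 7.21 and 6.90 with DMSO. PTGS2, which encodes cyclooxygenase-2, read 7.82, 8.09, 8.12 and 6.88, 6.47 and 6.42 and 6.81 and 6.68 in the same order. KMO, of tryptophan breakdown, read 7.94, 8.11, 8.20 and 6.81, 6.77 and 6.46 and 6.55 and 6.85. For these 3 genes carboplatin 4 lay in or just above the range of the DMSO arrays, and the other carboplatin arrays were more than 1 log2 unit above that range. FOSL1, a subunit of the AP-1 transcription factor and an output of MAP kinase signaling, read 10.18, 8.80, 9.51 and 8.43 in carboplatin 1 to 4 and 7.72 and 7.37 with the combination. The antisense RNA gene GLIS3-AS1 read 9.50, 8.49, 9.03 and 7.50 and 7.16 and 6.74, and GREM1, an antagonist of bone morphogenetic proteins, read 9.43, 9.92, 9.52 and 8.56 and 8.25 and 8.18. All 6 passed the test, at log2 changes of -1.42, -1.28, -1.15, -1.68, -1.68 and -1.14 with adjusted p between 0.0234 and 0.0465. Without carboplatin 4 the changes of TNS4, PTGS2, KMO and GREM1 were -1.78, -1.56, -1.47 and -1.41, with adjusted p of 0.00125, 0.000947, 0.00125 and 0.00188 from limma. When other arrays were left out in turn these calls were often lost: over all 10 arrays TNS4, KMO, GREM1 and GLIS3-AS1 were each lost in 7 runs, FOSL1 in 5 and PTGS2 in 4, with adjusted p of up to 0.373 for KMO. In RPL39 and KCNIP1, which rose, carboplatin 4 likewise read 10.37 and 7.28, near the DMSO arrays at 10.36 and 10.14 and 7.20 and 7.04.

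Calls among receptor tyrosine kinase genes and FOXO targets were all upward. Of 23 tested genes 6 were called higher and 0 lower, against 5.60% and 2.77% of all tested genes, with a median log2 change of 0.20 against 0.034. With arrays centred on their medians 4 were called higher. EGFR, the epidermal growth factor receptor, read 9.77 and 9.74 with the combination and 9.12, 9.06, 9.01 and 9.15 with carboplatin, with a log2 change of 0.67 ± 0.12 (adjusted p = 0.0128). INSR, the insulin receptor, read 8.33 and 8.44 against 7.39, 7.59, 7.57 and 7.69, with a log2 change of 0.82 ± 0.19 (adjusted p = 0.0253). With TXNIP and CCNG2, a cyclin that FOXO factors induce (log2 change 0.62), the receptor genes IGF1R and ERBB4 completed the 6, at 0.55 and 0.52. Outputs of the MAP kinase pathway went both ways: of 16 tested genes 2 rose, SPRY2 and the ERK phosphatase gene DUSP6 (1.15 ± 0.22), and 2 fell, FOSL1 and the phosphatase gene DUSP7 (-0.94 ± 0.24). Of 16 immediate early genes none was called, and their median was -0.022. Among 17 components of the PI3K and mTOR pathway 2 rose, TSC2, a subunit of the complex that inhibits mTORC1, by 0.57 and RRAGD, a Rag GTPase of amino acid sensing, by 0.66. DDIT4, an mTORC1 inhibitor, had -0.78 (adjusted p = 0.0783) and MTOR itself 0.068 (adjusted p = 0.803).

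**Figure D2:**
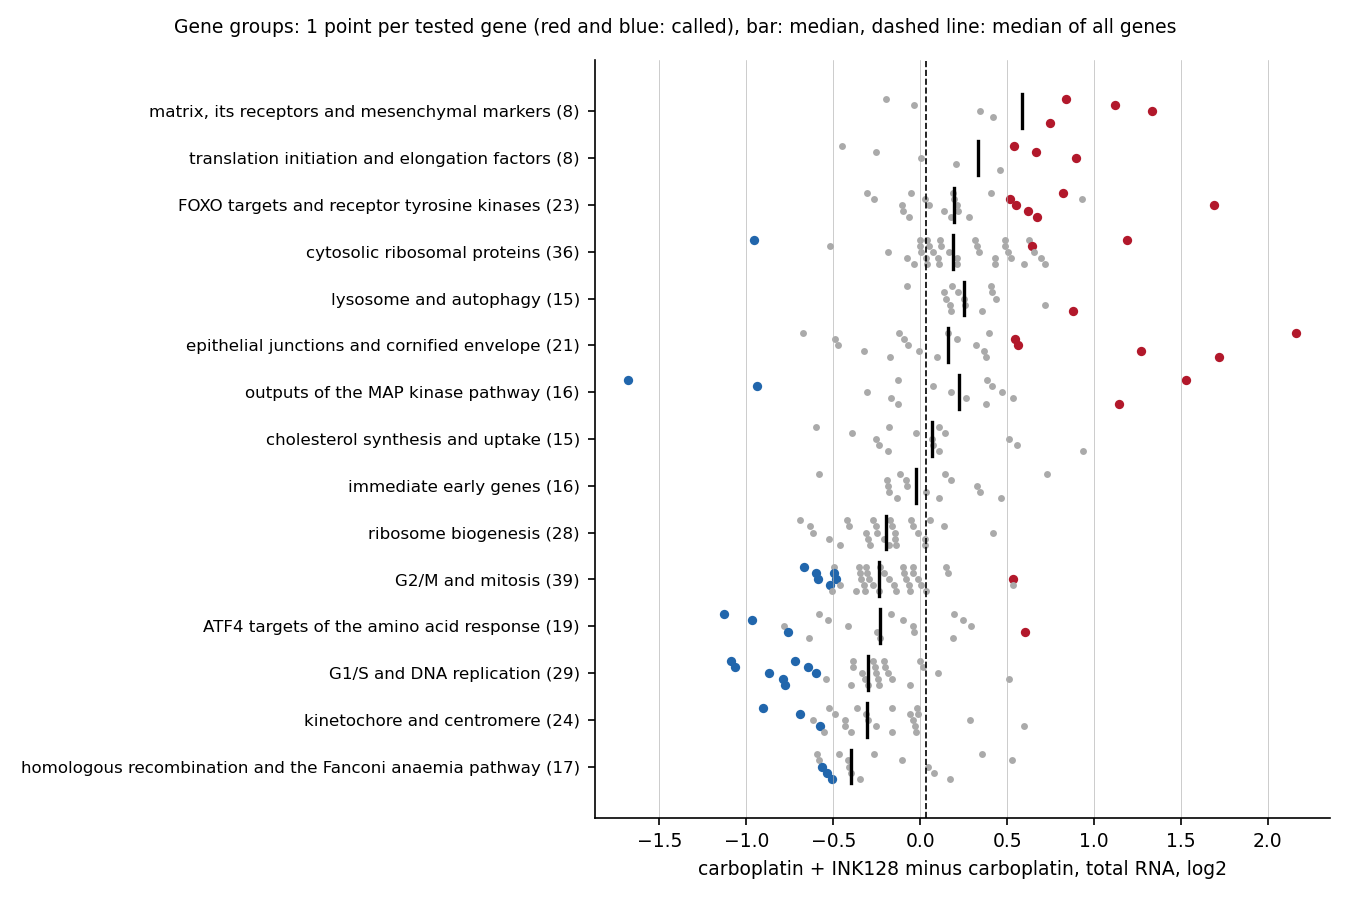
Log2 change in total RNA, combination minus carboplatin (x axis), of the tested genes of 15 gene groups (y axis, number of tested genes in brackets); each point is 1 gene, red if called higher, blue if called lower and grey if not called, the bar is the group's median and the dashed line the median of all tested genes (0.034). Groups of DNA replication, kinetochores and homologous recombination lie left of the line, with medians of -0.30, -0.31 and -0.40, and matrix and mesenchymal genes lie right of it at 0.58.

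Calls among cell cycle genes were nearly all downward. In G1/S and DNA replication 8 of 29 tested genes were called lower and 0 higher, with a median of -0.30, and 26 of the 29 had a negative change. Over all 7442 tested genes 2.77% were called lower and 3410 had a negative change. E2F8, an atypical E2F factor of S phase, read 8.81 and 8.60 with the combination and 9.92, 9.63, 9.79 and 9.84 with carboplatin, with a log2 change of -1.09 ± 0.17 (adjusted p = 0.00671). CDC25A, the phosphatase that activates cyclin-dependent kinases at entry into S phase, read 7.63 and 7.45 against 8.47, 8.85, 8.77 and 8.35, with a log2 change of -1.07 ± 0.22 (adjusted p = 0.0176). The replication initiation factor MCM10 fell by 0.87, UHRF1, which maintains DNA methylation, by 0.79, and E2F1, GINS2, E2F2 and GINS1 had changes of -0.78, -0.72, -0.64 and -0.60. Of 39 genes of G2/M and mitosis 6 were called lower, at a median of -0.24 over the group. They were the mitotic kinase genes AURKB (-0.67), PLK1 (-0.60), AURKA (-0.49) and BUB1 (-0.49), CDC20, an activator of the anaphase-promoting complex (-0.59), and the transcription factor gene MYBL2 (-0.52), while CDK7, a kinase of transcription and the cell cycle, rose by 0.53. Of 24 kinetochore and centromere genes 3 were called lower: SKA1 (-0.90), NDC80 (-0.69) and the centromeric histone gene CENPA (-0.57). With arrays centred on their medians 7 replication, 0 mitosis and 1 kinetochore genes were called lower, with medians of -0.26, -0.20 and -0.27. Fewer cycling cells and less of these mRNAs per cell cannot be told apart in RNA of a whole culture.

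PLK1, CDC20 and CENPA are shown because they fell and because their promoters hold both of the elements searched in mitotic genes, the cell cycle homology region TTTGAA and the CCAAT box. The sequences are from RefSeq (GRCh38.p14) at chr16:23678639-23678938 (plus strand), chr1:43358731-43359030 (plus strand) and chr2:26785806-26786105 (plus strand), 250 bases before to 50 after the start, 5′ to 3′, with both elements in capitals on either strand:
PLK1: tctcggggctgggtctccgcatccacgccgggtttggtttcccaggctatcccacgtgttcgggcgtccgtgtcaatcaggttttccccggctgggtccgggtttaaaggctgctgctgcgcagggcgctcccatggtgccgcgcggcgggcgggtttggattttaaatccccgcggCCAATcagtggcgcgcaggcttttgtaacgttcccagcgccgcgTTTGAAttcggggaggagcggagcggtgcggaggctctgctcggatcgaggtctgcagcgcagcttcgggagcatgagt
CDC20: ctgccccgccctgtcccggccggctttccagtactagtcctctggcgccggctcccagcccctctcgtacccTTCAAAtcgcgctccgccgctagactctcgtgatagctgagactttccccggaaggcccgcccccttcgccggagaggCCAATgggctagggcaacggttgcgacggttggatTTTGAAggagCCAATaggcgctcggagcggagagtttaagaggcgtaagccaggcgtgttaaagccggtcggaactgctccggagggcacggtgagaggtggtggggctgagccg
CENPA: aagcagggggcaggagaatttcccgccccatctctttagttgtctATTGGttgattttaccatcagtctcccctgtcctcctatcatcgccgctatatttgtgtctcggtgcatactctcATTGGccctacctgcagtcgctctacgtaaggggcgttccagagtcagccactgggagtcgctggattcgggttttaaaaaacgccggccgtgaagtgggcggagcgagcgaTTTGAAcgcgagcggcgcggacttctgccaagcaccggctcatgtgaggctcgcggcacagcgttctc
The TTTGAA nearest the start began 29 bases before it in PLK1, 65 in CDC20 and 18 in CENPA. Over both strands TTTGAA occurred in 15.4% of all promoters and 9.71% of those of tested genes, CCAAT in 35.7% and 37.1%, and both in 6.08% and 4.23%. In the 52 promoters found for the 63 genes of the mitosis and kinetochore lists TTTGAA occurred in 31 (59.6%), CCAAT in 37 (71.2%) and both in 25 (48.1%). Of the 8 of these genes that were called lower and had a promoter, 3 held both, namely those shown (37.5%).

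Calls among DNA repair genes were mostly single genes of a list, and those of homologous recombination were all downward. Of 17 genes of homologous recombination and the Fanconi anaemia pathway, which removes DNA crosslinks, 3 were called lower and 0 higher, with a median of -0.40. Beside this and the lists that follow, 5.60% of all tested genes were called higher and 2.77% lower. With arrays centred on their medians none of the 3 recombination genes was called (median -0.36), nor was any checkpoint gene. RAD54L, a motor protein of strand exchange, read 7.66 and 7.70 with the combination and 8.09, 8.29, 8.36 and 8.12 with carboplatin, with a log2 change of -0.53 ± 0.14 (adjusted p = 0.0393). BARD1, the partner of BRCA1, and XRCC2, which acts in homologous recombination, had changes of -0.57 ± 0.16 and -0.51 ± 0.14. In excision and mismatch repair 1 of 14 was called, the mismatch repair gene MSH3, at 10.40 and 10.40 against 9.43, 9.42, 9.53 and 9.58, with a log2 change of 0.91 ± 0.16 (adjusted p = 0.00955). Of 16 checkpoint genes 1 was called lower, TIPIN, a stabilizer of stalled replication forks (-0.93 ± 0.26), and CHEK1, an effector kinase, had -0.44 (adjusted p = 0.0768). TIGAR, a p53 target that lowers glycolytic flux, was the only called gene of 12 p53 targets. It read 7.03 and 6.99 against 7.71, 8.49, 8.29 and 7.86, with a log2 change of -1.08 ± 0.23 (adjusted p = 0.02). The 12 p53 targets had a median of 0.32, with 8 positive and 4 negative changes. Of 11 inhibitors of apoptosis 1 was called, BAG1, which was higher (0.91 ± 0.24). The median of the 11 was -0.051, and 7 of their changes were negative. Of 9 promoters of apoptosis and 6 genes of platinum transport and detoxification none was called. The adjusted p of BAX, a pore-forming promoter of apoptosis, was 0.254 at a change of -0.26, and that of the glutathione transferase gene GSTP1 0.867 at -0.051.

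Calls among metabolic genes under mTORC1 went both ways. Over all tested genes 5.60% were called higher and 2.77% lower. Of 19 ATF4 targets of the amino acid response 3 were called lower, PSAT1, PSPH, the last enzyme of serine synthesis, and SESN2, a stress-induced inhibitor of mTORC1, and 1 higher, the stress cytokine gene GDF15. PSPH read 8.47 and 8.46 with the combination and 8.96, 9.34, 9.36 and 9.24 with carboplatin, with a log2 change of -0.76 ± 0.15 (adjusted p = 0.0149). SESN2 and GDF15 had -0.97 ± 0.25 and 0.61 ± 0.17. The group's median was -0.23, and 14 of the 19 changes were negative. No TGATGNAA, the core of the element that ATF4 binds, was in the windows of PSAT1 or SESN2, on either strand, while 3.67% of all promoters and 1.41% of those of tested genes held it, so its absence from 2 windows carries no weight. Of 17 cytosolic tRNA synthetases YARS1, for tyrosine, fell by 0.59 and QARS1, for glutamine, rose by 0.57. Of 14 genes of fatty acid synthesis SCD fell and THRSP rose, while FASN, the synthase, had -0.025 (adjusted p = 0.933). Of 15 genes of cholesterol synthesis and uptake none was called and the median was 0.068. Polyamine genes went both ways: SAT1, which acetylates polyamines for export or breakdown, read 8.82 and 8.68 against 7.09, 7.89, 7.74 and 7.67, with a log2 change of 1.15 ± 0.21 (adjusted p = 0.011), and AMD1, a decarboxylase of their synthesis, read 10.35 and 10.47 against 10.97, 11.55, 11.44 and 10.86, with a log2 change of -0.79 ± 0.20 (adjusted p = 0.0343). VEGFA, the angiogenic factor and a HIF-1 target, was the only called gene of 11 in glycolysis and HIF-1 signaling, at -0.62 ± 0.16.

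Calls among translation factors were all upward. Of 8 tested initiation and elongation factors 3 were called higher and 0 lower, against 5.60% and 2.77% of all tested genes. Their median was 0.33. EIF4B, a helicase cofactor phosphorylated downstream of mTORC1, read 11.72 and 11.96 with the combination and 10.97, 10.95, 10.97 and 10.87 with carboplatin, with a log2 change of 0.90 ± 0.14 (adjusted p = 0.00588). The elongation factor genes EEF1G and EEF2 rose by 0.67 ± 0.15 and 0.54 ± 0.14. Of 36 cytosolic ribosomal protein genes 31 had a positive change, with a median of 0.19, but only 2 were called higher, RPL39 (1.19 ± 0.33) and RPS15A (0.64 ± 0.17), and 1 lower, RPS26 (-0.96 ± 0.21). RPS26 read 7.84 and 6.93 with the combination and 8.35, 8.22, 8.23 and 8.54 with carboplatin, and its change was -1.41 without combination 1 and -0.50 without combination 3. Ribosomal protein genes have many processed copies, so these 3 probesets may read more than 1 locus. Ribosome biogenesis genes had mostly negative changes, 23 of 28 with a median of -0.19, and none was called. Of 24 tested mRNAs that the study listed for reduced translation with the combination, a list chosen on these samples and so not independent of them, 3 were called higher (RPS15A, CDK7 and CIRBP, the cold-inducible RNA-binding protein, at 0.88) and 1 lower (RPL22L1 at -0.62). Their median was 0.27, with 17 positive and 7 negative changes. The study listed more mRNAs than the 24 tested here.

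Matrix and epithelial genes held some of the larger rises. Of 8 tested genes on a list of the extracellular matrix, its receptors and mesenchymal markers 4 were called higher and 0 lower, with a median of 0.58. For this and the lists below, 5.60% of all tested genes were called higher and 2.77% lower. The microfibril gene FBN1 read 7.44 and 7.40 with the combination and 5.80, 6.43, 6.28 and 5.84 with carboplatin, with a log2 change of 1.33 ± 0.21 (adjusted p = 0.00588). VIM, the intermediate filament of mesenchymal cells, read 8.55 and 8.49 against 7.41, 7.54, 7.02 and 7.62, with a log2 change of 1.12 ± 0.19 (adjusted p = 0.00839). Tenascin C (TNC) and FBN2 rose by 0.84 ± 0.15 and 0.75 ± 0.18. Of 21 epithelial junction and cornified envelope genes 5 were called higher and 0 lower, with a median of 0.16: PPL, SCEL, KRT18, the desmosomal cadherin gene DSG2 (0.56) and the adhesion gene EPCAM (0.54). KRT18, a keratin of simple epithelia, read 11.28 and 11.61 against 9.98, 10.21, 10.12 and 10.37, with a log2 change of 1.27 ± 0.20 (adjusted p = 0.00588). Of the 21 genes 9 had negative changes, down to -0.67. In lysosome and autophagy genes 14 of 15 changes were positive with a median of 0.25, and 1 was called, HEXA, a subunit of lysosomal hexosaminidase (0.88 ± 0.19). Of 7 interferon-stimulated genes HERC6 (0.58) and the RNA sensor gene RIGI (0.59) rose, though neither was called with arrays centred on their medians and each was lost in 7 of the 10 runs that left out 1 array. Of 13 chaperones SEL1L, of the degradation of misfolded proteins, rose by 0.77, and of 7 NRF2 targets none was called.

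The same genes were then followed after INK128 without carboplatin, on the 2 INK128 and 2 DMSO arrays of total RNA. There limma called 209 of 7442 genes (2.81%), 94 higher and 115 lower, while 1473 had an unadjusted p below 0.05. Among the genes called higher when INK128 was added to carboplatin 59 were also called higher here, which is 14.1% of the 417 and 62.8% of the 94. Of those called lower 41 were also called lower, 19.9% of the 206 and 35.7% of the 115, and 0 genes were called in opposite directions. Over all tested genes 5.60% were called higher and 2.77% lower when INK128 was added to carboplatin. Both comparisons used the same estimate of each gene's spread, so their calls are not independent. Of the 623 genes 558 had the same sign in both (89.6%), against 63.3% of all tested genes. Across the 7442 genes, which are not independent, the changes correlated at Pearson r = 0.48 and Spearman rho = 0.43. The INK128 arrays correlated with each other at r = 0.068 across centred genes. INK128 array 1 correlated with combination 1 and 3 at 0.475 and 0.394, and INK128 array 2 at 0.185 and -0.0288. The fraction score was 0.15 in INK128 array 1 and -0.86 in INK128 array 2, and -0.60 and -0.30 in combination 1 and 3. The part of these differences in the agreement was not tested. The call count for INK128 alone rests on the pooled spread of the 10 arrays, since with its own 4 arrays limma called 0.

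**Figure D3:**
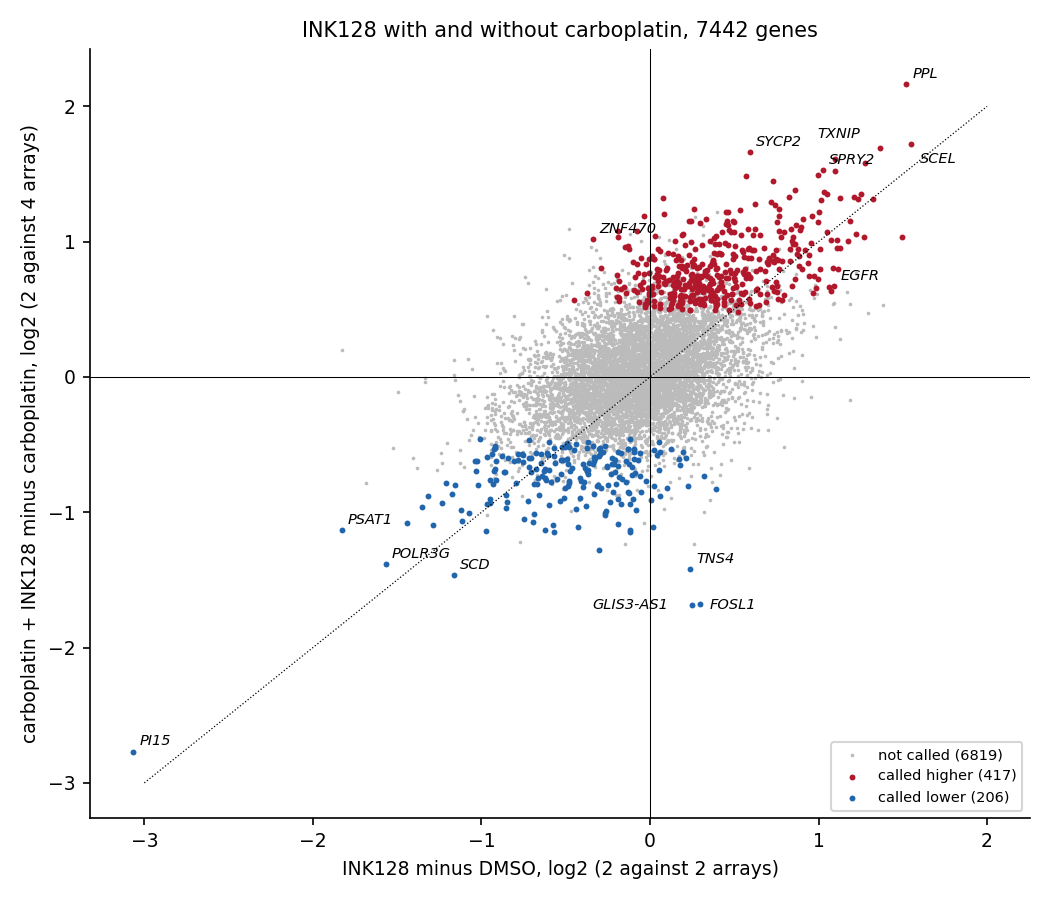
Log2 change of 7442 genes in total RNA after INK128 without carboplatin (x axis, INK128 minus DMSO) and with it (y axis, combination minus carboplatin); red and blue mark the 417 and 206 genes called higher and lower on the y axis, and the dotted line marks equal changes. PI15 lies at the lower left in both, at -3.07 and -2.77, while FOSL1, TNS4 and GLIS3-AS1 are low on the y axis only.

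PI15 read 5.79 and 7.07 with INK128 and 9.07 and 9.92 with DMSO, a log2 change of -3.07, which differed from that with carboplatin by 0.30 (95% interval -0.80 to 1.39). The other leading genes with changes of similar size were SCEL (1.55 without and 1.72 with carboplatin), TXNIP (1.36 and 1.69), POLR3G (-1.57 and -1.38) and FBN1 (1.21 and 1.33). PSAT1 fell by 1.83 without carboplatin and by 1.13 with it, with INK128 arrays at 10.06 and 9.18. The 95% interval of the difference reached 0.77 for SCEL and 1.39 for PI15, so similar values do not show equal effects. Over all genes the test of the difference itself, the interaction in limma, called 0 of 7442, with 753 at an unadjusted p under 0.05 and a smallest adjusted p of 0.484.

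Genes whose values differed most between the settings are therefore given as values and not as calls. FOSL1 had 0.29 without carboplatin and -1.68 with it (difference -1.98, 95% interval -3.31 to -0.64), and TNS4 had 0.24 and -1.42 (difference -1.66, -2.87 to -0.44). GLIS3-AS1, CXCL10, KMO and SPRYD4 had 0.25, -0.12, -0.12 and 0.018 without carboplatin. The smallest p of the interaction was that of ZNF470, a zinc finger gene, which read 7.57 and 7.92 with the combination, 6.62, 6.80, 6.58 and 6.89 with carboplatin, 6.72 and 6.94 with INK128 and 7.22 and 7.12 with DMSO. Its combination arrays were the highest of the 10, and its changes were 1.02 with and -0.34 without carboplatin (difference 1.36, adjusted p = 0.484). The zinc finger genes ZFP30 and ZNF189 followed, at 0.57 and 0.57 with carboplatin and -0.45 and -0.53 without it. APAF1, the scaffold of the apoptosome, had 0.28 and -0.78, and the long noncoding RNA CYTOR -0.37 and 0.60, and neither APAF1 nor CYTOR nor ZNF189 passed the test with carboplatin (adjusted p = 0.304, 0.121 and 0.0614). SYCP2 read 7.86 and 8.26 with INK128 and 7.55 and 7.39 with DMSO, above the 6.01, 6.82, 6.79 and 7.25 of carboplatin.

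**Figure D4:**
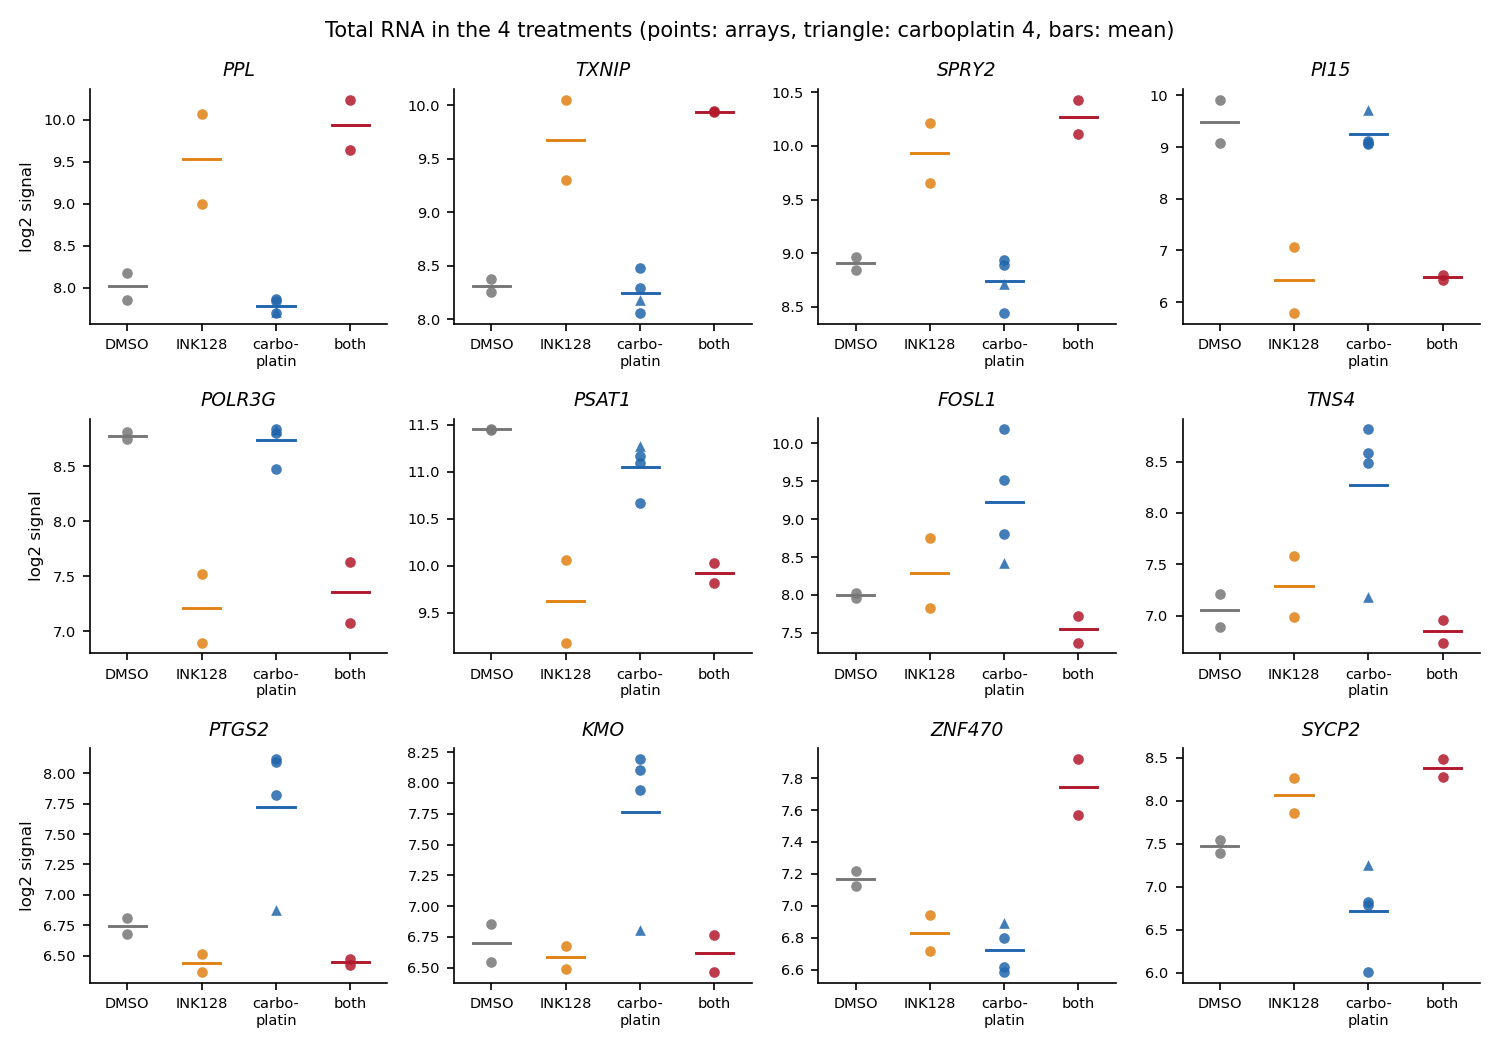
Log2 signal (y axis, scaled to each gene) of 12 genes in total RNA after DMSO, INK128, carboplatin or both (x axis); points are arrays, the triangle is carboplatin 4 and bars are means of 2, 2, 4 and 2 arrays. PPL, TXNIP and SPRY2 are high and PI15, POLR3G and PSAT1 low in both INK128 groups, while TNS4, PTGS2 and KMO are high in 3 of the 4 carboplatin arrays only.

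In polysome RNA, from 3 combination and 5 carboplatin arrays by the same datasets or, for arrays these do not hold, by the titles, limma called 1715 genes (23.0%), 557 higher and 1158 lower. Total and polysome RNA came from the same lysates and are not independent samples. Of the 417 genes called higher in total RNA 190 were called higher on polysomes, and of the 206 called lower 145 were called lower, while 2 were called in opposite directions. PPL, SCEL, TXNIP and SPRY2 had polysome changes of 1.47, 1.22, 1.23 and 1.01, and PI15, POLR3G, PSAT1 and AMD1 had -3.47, -1.56, -1.36 and -2.09. EEF1G, higher in total RNA by 0.67, was lower on polysomes at -0.67 (adjusted p = 0.00916), and EIF4B and EEF2, higher by 0.90 and 0.54, had -0.063 and 0.042 there. CDK7 was higher by 0.53 in total RNA and lower on polysomes at -0.52 (adjusted p = 0.0141).

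The calls depended on single arrays. Leaving out 1 array gave between 0 calls, without combination 3, and 1104, without either INK128 array. The count was 302, 383, 216 and 835 without carboplatin 1, 2, 3 and 4, of which carboplatin 3 is the array in conflict, and 281 without either DMSO array. DMSO and INK128 arrays enter the comparison only through the common estimate of the spread. Of the 84 called genes named by rule 39 were lost in at least 5 of the 10 runs and 19 in the run without combination 3 alone. Of the cell cycle and repair calls among them, SKA1 and CDK7 were lost in 8 of the 10 runs, UHRF1, TIPIN, CDC20, RAD54L, BARD1 and XRCC2 in 7, AURKB and CENPA in 6 and PLK1 in 5, while E2F8 was lost in 1 and CDC25A, MCM10, NDC80 and MSH3 in 2. Among calls of other lists RRAGD and GDF15 were lost in 8 runs. TSC2, EEF2, CCNG2, BAG1, QARS1, YARS1, DSG2, RPL39 and RPS15A were lost in 7, while EIF4B, FBN1, TNC and KRT18 were lost in 1. Without combination 3 the change of AURKB was -0.43, that of CXCL10 -0.40 and that of SPRYD4 -0.49, and without combination 1 the last 2 were -1.86 and -1.73.

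**Figure D5:**
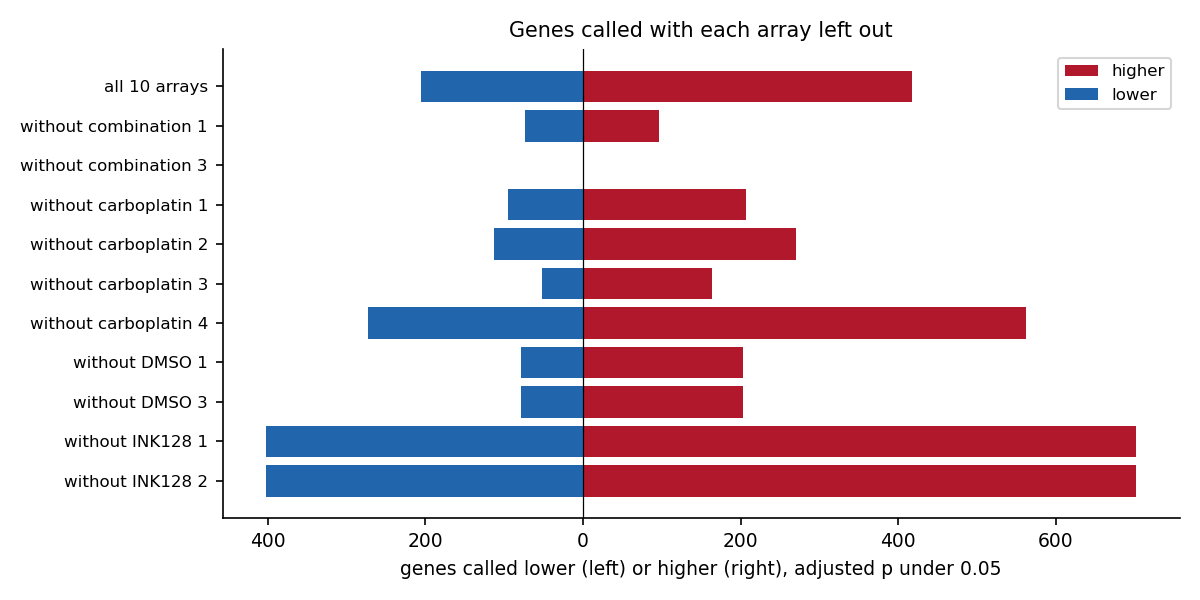
Number of genes called lower (left, blue) or higher (right, red) at an adjusted p under 0.05 (x axis) with all 10 total RNA arrays and with each array left out in turn (y axis). The count falls from 623 to 0 without combination 3 and rises to 1104 without either INK128 array.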

How the data were processed

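The deposited table holds log2 signals, which the authors made with RMA background correction, quantile normalization and probeset summaries in Expression Console 1.4.1. It has 53617 probesets without missing values, and array medians of 4.97 to 5.13. The number of arrays limits the precision. Quantile normalization removes differences in overall level between arrays, so a change in RNA per cell common to all genes is not seen. The study describes 2 complete sets of independent experiments but not which arrays form a set, so the 4 carboplatin arrays may not be 4 independent replicates, and p-values measure only the spread between these arrays.

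The platform annotation named 16098 probesets. The probeset of highest mean over all 24 arrays was kept for each of 14884 symbols. The 7442 genes with such a mean of at least 6.54, the median, were tested. A linear model of the 10 total RNA arrays was fitted with limma 3.58.1 (R 4.3.3), and Benjamini-Hochberg adjusted p-values were held to a threshold of 0.05. Errors are standard errors of that fit. The code was tested on simulated data. Members, conditions and the 33 gene lists were chosen with earlier results of these data known. Of the lists 31 had at least 3 tested genes.

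Genes were named by rule: the 15 called genes with the largest rise and the 15 with the largest fall, the 4 largest called changes of each list, and the 5 smallest p-values of the interaction. Other genes were named after their values were seen. Promoters were matched by symbol, the first entry of each, for 69 of the 87 genes of the rule. Conditions by the titles, other filters and normalizations, array weights, a replicate block and leaving out each array were the alternatives. No column of the table was left unused.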

Additional observations from a re-analysis of the deposited data

Results flagged for a closer look

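In 7 of the 87 genes named by rule 1 of the 4 carboplatin arrays lay far from the other 3, by the gap to the nearest array over the group's range (Dixon's criterion for 4 values). Chance alone flags about 1 in 20 groups, or 5%. Carboplatin 4 was the distant array in PI15 at a log2 signal of 9.725 (others 9.06 to 9.128), in RPL39 at 10.37 (others 9.001 to 9.134) and in UHRF1 at 8.408 (others 8.744 to 8.802). Carboplatin 1 was the distant array in POLR3G at 8.474 (others 8.8 to 8.838), in RIGI at 8.283 (others 8.637 to 8.694), in RPS15A at 6.968 (others 7.428 to 7.481) and in ZNF189 at 6.943 (others 7.411 to 7.476).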

How the results depend on the processing

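With the conditions of the titles limma called 0 genes in the comparison (355 at an unadjusted p under 0.05), 0 higher and 0 lower, and 0 with a replicate block of the title numbers (687 unadjusted). The thresholds of the study's methods then passed 7 and 30 genes in place of 123. INK128 minus DMSO had 0 calls in both, and polysome RNA 933 in place of 1715, or 1323 without the arrays in conflict. Of the 623 genes 183 kept their sign, and of the 87 genes named by rule 62 reversed, 63 with the block. The log2 changes of those that had risen were, without and with the block, PPL -0.11 and -0.13, SCEL -0.079 and -0.096, TXNIP -0.22 and -0.19, SYCP2 -0.60 and -0.64, H6PD -0.082 and -0.086, SPRY2 -0.49 and -0.50, FLJ42627 -0.28 and -0.38, KCNIP1 -0.87 and -1.09, NOTCH2NLA -0.44 and -0.63, YPEL2 -0.62 and -0.61, CTHRC1 -0.43 and -0.30, CTSO -0.39 and -0.64, ZNF581 -0.094 and -0.085, RPL39 -1.12 and -1.33, SAT1 -0.77 and -0.73, VIM -0.40 and -0.40, ZNF470 -0.75 and -0.82, MSH3 -0.14 and -0.23, BAG1 -0.14 and -0.12, EIF4B -0.057 and -0.095, CIRBP -0.0065 and -0.024, TNC -0.031 and -0.073, RRAGD -0.31 and -0.35, RPS15A -0.21 and -0.20, CCNG2 -0.66 and -0.74, TSC2 -0.011 and -0.012, ZFP30 -0.24 and -0.20, ZNF189 -0.28 and -0.25, DSG2 -0.16 and -0.17, EPCAM -0.062 and -0.015. QARS1 reversed only with the block, at -0.051. Those of genes that had fallen were RAD54L 0.59 and 0.69, BARD1 0.31 and 0.42, YARS1 0.51 and 0.62, CDC20 0.33 and 0.37, PLK1 0.39 and 0.48, VEGFA 0.0040 and 0.032, AURKB 0.48 and 0.54, NDC80 0.16 and 0.28, PSPH 0.11 and 0.20, UHRF1 0.76 and 0.90, AMD1 0.24 and 0.39, MCM10 0.70 and 0.80, TIPIN 0.10 and 0.23, SESN2 0.20 and 0.077, CDC25A 0.62 and 0.81, TIGAR 0.77 and 1.04, E2F8 0.27 and 0.25, MAB21L3 0.12 and 0.14, SPRYD4 0.40 and 0.34, CXCL10 0.41 and 0.53, FGFBP1 0.60 and 0.83, PSAT1 0.63 and 0.82, GLIPR1 0.18 and 0.15, GREM1 0.25 and 0.49, KMO 0.93 and 1.11, PTGS2 0.84 and 1.05, POLR3G 0.065 and 0.14, TNS4 1.05 and 1.19, SCD 0.37 and 0.35, FOSL1 0.63 and 0.49, GLIS3-AS1 0.35 and 0.29, PI15 0.48 and 0.51.

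Under all other alternatives 0 of the 87 genes reversed, which for called genes is fixed where an array is left out, since their groups do not overlap. The 623 calls (417 higher, 206 lower) became 2121 (1207 and 914) with array weights, 1686 (1113 and 573, 613 shared) with a replicate block of the dataset numbers, and 473 (361 and 112) with arrays centred on their medians. The numbers do not establish pairs: deviations of combination and carboplatin arrays with the same number correlated at 0.0805 and 0.154. Other filters, all named probesets, quantile normalization within total RNA, a fit of the 6 arrays alone and a variance trend gave 504 to 701. The methods' thresholds passed 200 probesets with all named probesets and 215 genes with the block of dataset numbers. INK128 minus DMSO had 134 calls without a filter, 116 over all probesets, 96 with centring, 59 with array weights and 0 over its own 4 arrays, in place of 209. The interaction kept 0 calls, except 10 without carboplatin 4. Leaving out each array in turn gave 0 to 1104 calls, 0 to 702 higher and 0 to 402 lower, 87 to 216 at the methods' thresholds, 0 to 392 for INK128 minus DMSO and 0 to 10 for the interaction. With combination 3 left out the lone combination array is assumed to vary like the other groups. The cause of these changes was not tested.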
